A study of Mus musculus with 12 samples.

Results

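The primitive streak and mesoderm factors described here are 8 mouse genes: Eomes, Mixl1, Mesp1, Evx1, Lhx1, Tbx6, Cdx1 and Rspo3. They were taken by name as a set of genes of the gastrulating embryo, with earlier results of these data known. Their ranks and counts therefore describe the set and are not independent support. Each was read from the probe set annotated with its symbol alone, of which every one of the 8 had 1, out of 22180 genes measured in this way. Their log2 signal was followed over 12 expression microarrays, 2 for each of 6 groups. The rsEpiSC E6.5 and rsEpiSC E5.75 groups are lines derived from epiblast at embryonic day (E) 6.5 and 5.75. Their medium held IWR1, an inhibitor of Wnt signalling, at 2.5 µM and a further factor at 20 ng/ml that the labels leave unnamed. EpiSC are epiblast stem cells derived at E5.75, whose medium held 20% serum replacement, 12 ng/ml FGF2 and 20 ng/ml of Activin A. ESC are embryonic stem cells derived at E3.5 and grown with LIF, the GSK3 inhibitor CHIR99021 at 3 µM and the MEK inhibitor PD0325901 at 1 µM. The labels give LIF at 10 µg/ml. Every line was kept on fibroblast feeders from mouse embryos. The remaining groups, epiblast E6.5 and epiblast E5.75, are tissue taken from the embryo. The strain field names a cross of OCT4-deltaPE-GFP, a fluorescent reporter of Oct4, with C57BL/6 for ESC and EpiSC. In the other groups its last number counts up from 7 to 14 from array to array, and the upper passage number of the rsEpiSC arrays from 26 to 29, so neither field was used. The labels do not say whether the arrays of a group are separate lines, cultures or litters, so a p-value here speaks of the variation among these arrays, and that variation may be technical.

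At gastrulation, cells of the posterior epiblast enter the primitive streak, undergo an epithelial to mesenchymal transition and leave it as mesoderm or definitive endoderm. Nodal and Wnt signals start this programme. Eomes and Mixl1 are among its early transcription factor genes, Mesp1 marks nascent mesoderm, and Tbx6 belongs to the paraxial mesoderm that forms later. Cultured epiblast stem cells are compared with the tissue at different stages to ask how far such a programme is running in them.

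The values are log2 signals, so that a difference of 1 is a 2-fold change. Signals of different genes come from different probes and were not set against each other. The deposited values carry no detection call, so a signal below the array's median gene is not shown to be above background, and no fold is given for a difference in which either group lay there. The median gene had a signal between 4.58 and 4.70 on every array. The arrays did differ in spread: the interquartile range over genes was 3.07 to 3.31 on the 8 cultured arrays and 2.23 to 2.68 on the 4 tissue arrays. The SD between replicates, as a root mean square over genes, was 0.24 to 0.41 in the cultured groups, and 0.39 and 0.46 in epiblast E6.5 and epiblast E5.75. The labels of the groups were set against marker lists. Of 8 epiblast markers, 7 lay above the array's median gene on both arrays of rsEpiSC E6.5, of EpiSC and of ESC, and 5 did in rsEpiSC E5.75, against all 8 in each tissue group. In the fit described below, 4 of the 8 passed as lower and 2 as higher in EpiSC than in epiblast E6.5. Of all genes 9.46% and 11.2% did. In ESC against epiblast E6.5 it was 4 and 3, where 9.77% and 9.76% of all genes did. In EpiSC against epiblast E5.75 it was 4 and 3, where 11.4% and 12.6% did. In rsEpiSC E6.5, 3 of the 8 passed as lower than in epiblast E6.5, where 5.78% of all genes did. The median there was -1.16, and 2 of the 8 had a positive difference. In rsEpiSC E5.75, 7 passed as lower than in epiblast E5.75, where 10% of all genes did, with a median of -1.99. The difference was most negative for Tdgf1, the Nodal co-receptor gene, in rsEpiSC E6.5 (-5.30 ± 0.61), and Otx2 was at 0.14 ± 0.33 there and at -0.02 ± 0.33 in rsEpiSC E5.75. Pou5f1, the gene of Oct4, had signals of 5.23 and 4.84 in rsEpiSC E6.5, against 5.82 and 5.75 in epiblast E6.5. It had 4.87 and 3.86 in rsEpiSC E5.75, against 5.54 and 5.91 in epiblast E5.75. Nanog had 6.44 and 6.32 in rsEpiSC E6.5, against 8.81 and 8.53, and 5.08 and 5.56 in rsEpiSC E5.75, against 6.89 and 7.69. Of 8 markers of anterior and neural ectoderm, 7 lay above the median gene on both arrays of rsEpiSC E6.5 and 8 on those of rsEpiSC E5.75. Their summed linear signal was 743 to 925 in rsEpiSC E6.5 and 995 to 1385 in rsEpiSC E5.75, and 161 to 203 on all other arrays. The part of these marker differences in the results was not tested.

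Eomes codes for a T-box transcription factor that epiblast cells need to leave the streak as mesoderm and endoderm. Its signal was 5.43 and 4.87 in rsEpiSC E6.5, 4.31 and 4.25 in rsEpiSC E5.75, 5.31 and 5.40 in EpiSC and 5.19 and 5.32 in ESC, against 8.88 and 8.97 in epiblast E6.5 and 7.14 and 7.35 in epiblast E5.75. Every tissue array was above every cultured array, and the 2 tissue stages did not overlap. Below them EpiSC, ESC and rsEpiSC E6.5 overlapped as neighbours, and rsEpiSC E5.75 was lowest, apart from all of them. Within an array, the gene lay above 43.3% to 61.6% of genes on the cultured arrays, against 95.3% in epiblast E6.5 and 85.4% to 86.0% in epiblast E5.75.

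Mixl1, a paired-type homeobox gene of the streak, had another pattern. Its signal was 3.81 and 4.14 in rsEpiSC E6.5, 4.46 and 3.73 in rsEpiSC E5.75, 4.03 and 4.32 in EpiSC and 4.31 and 4.35 in ESC, against 6.95 and 7.88 in epiblast E6.5 and 4.28 and 3.56 in epiblast E5.75. Epiblast E6.5 therefore stood alone at the top, and the remaining 5 groups overlapped as neighbours in the order of their means, which ran from 4.33 in ESC to 3.92 in epiblast E5.75. Early epiblast, which already had a high Eomes signal, had a Mixl1 signal within the range of, or below, that of the lines.

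Mesp1, a basic helix-loop-helix gene of nascent mesoderm, had signals between 3.30 and 4.24 on the cultured arrays, against 5.06 and 4.82 in epiblast E6.5 and 4.28 and 4.49 in epiblast E5.75. All 8 cultured arrays were below all 4 tissue arrays in log2 signal. By position within the array they were not: the gene lay above 24.1% to 42.9% of genes on the cultured arrays, against 55.1% to 59.0% in epiblast E6.5 and 38.5% and 46.6% in epiblast E5.75. Lhx1, a LIM homeobox gene of the streak and of the anterior visceral endoderm, was between 3.82 and 4.49 on the cultured arrays, against 4.99 and 5.22 in epiblast E6.5 and 4.58 and 4.46 in epiblast E5.75. It was lowest in EpiSC (3.93 and 3.82), which did not overlap ESC (4.46 and 4.01). Epiblast E6.5 was thus highest for both genes, above epiblast E5.75 without overlap, and above every cultured array. A second probe set that names Lhx1 together with Lhx1os, the neighbouring antisense transcript, was left out by the rule. It gave 3.19 to 3.45 on the cultured arrays, against 3.57 and 4.32 in epiblast E6.5 and 3.97 and 3.90 in epiblast E5.75.

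Rspo3 codes for a secreted R-spondin, which strengthens Wnt signalling at the receptor. Its signal was 4.88 and 4.96 in rsEpiSC E6.5, 3.71 and 3.37 in rsEpiSC E5.75, 4.52 and 4.71 in EpiSC and 3.19 and 3.52 in ESC, against 5.12 and 5.84 in epiblast E6.5 and 4.33 and 3.89 in epiblast E5.75. No adjacent groups in this order of means overlapped except rsEpiSC E5.75 and ESC, the lowest. In log2 signal rsEpiSC E6.5 and EpiSC were thus above epiblast E5.75, and rsEpiSC E5.75 and ESC below it. By position within the array rsEpiSC E5.75 was not apart from that tissue. The gene lay above 25.5% and 31.6% of genes there, against 31.1% and 40.0% in epiblast E5.75.

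Evx1, an even-skipped type homeobox gene of the posterior streak, varied least, between 4.18 and 4.72 over the 12 arrays, a range of 0.55 that lay at the 1.51 percentile of the ranges of all genes. Its signal was 4.72 and 4.58 in epiblast E6.5, with no overlap with rsEpiSC E6.5, the next group (4.32 and 4.55), and the other groups overlapped as neighbours. Tbx6, a T-box gene of paraxial mesoderm, was lowest in epiblast E6.5 (3.80 and 3.76) and highest in rsEpiSC E5.75 (4.76 and 4.34) and epiblast E5.75 (4.63 and 4.17), which overlapped. Cdx1, a caudal-type homeobox gene of posterior patterning, was highest in ESC (4.30 and 4.85), which overlapped epiblast E5.75 (4.04 and 4.42). Its signal in the remaining groups lay between 3.33 and 4.02. Tbx6 and Cdx1 were thus the members whose mean was lower in epiblast E6.5 than in epiblast E5.75.

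**Figure D1:**
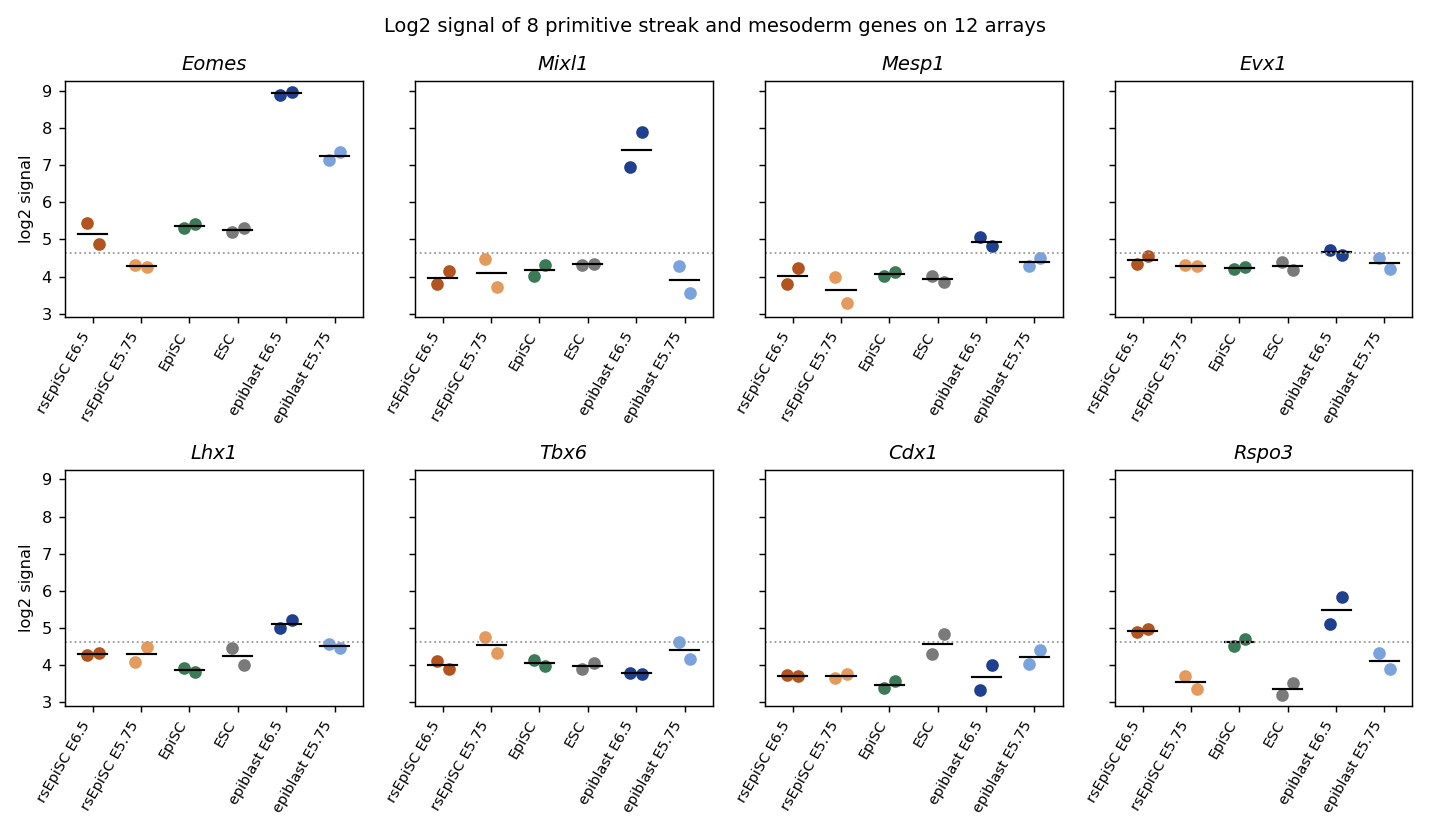
Log2 signal (vertical axis, one scale for all panels) of each of the 8 genes in the 6 groups (horizontal axis). Points are arrays, black bars the mean of 2 arrays, and the dotted line the mean over arrays of the median gene. Eomes is at 5.43 or less on the 8 cultured arrays and at 7.14 or more on the 4 tissue arrays, and Mixl1 is high in epiblast E6.5 alone.

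The differences were then tested. Each is the difference between 2 group means ± the standard error of a fit with limma over all 22180 genes and 12 arrays, with Benjamini-Hochberg adjustment of the p-values over all of them. A gene passed, and is said to have risen or fallen, where the adjusted p was under 0.05. With 2 arrays against 2, an exact permutation test of a single gene cannot go below p = 0.333, so no such test is given. Several comparisons share a group, and their values are given side by side.

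Between the tissue stages, epiblast E6.5 against epiblast E5.75, Mixl1 rose by 3.49 ± 0.37 (limma adjusted p = 0.0128), the largest difference of all 22180 genes in either direction. It was 1 of 8 members that passed, and none fell. Over all genes 5 passed: 3 rose (0.0135%) and 2 fell (0.00902%). The other 4 genes, named after their values were seen, were Daam1 (2.13 ± 0.28) and the microRNA gene Mir3070a (2.07 ± 0.29), which rose, and Dppa2 (-2.90 ± 0.40) and the histone gene H4c9 (-2.54 ± 0.34), which fell. Eomes differed by 1.68 ± 0.26 (limma adjusted p = 0.0748) and Rspo3 by 1.37 ± 0.29 (limma adjusted p = 0.147) without passing, with ranks of 62 and 170 among all genes by size of difference. Lhx1 (0.59 ± 0.25), Mesp1 (0.56 ± 0.27), Evx1 (0.30 ± 0.23), Cdx1 (-0.56 ± 0.28) and Tbx6 (-0.62 ± 0.25) did not pass either, all at a limma adjusted p of 0.339 or more. In log2 signal the 2 stages did not overlap for any of the 8 genes, 6 with epiblast E6.5 higher and 2 with it lower. Of all genes 18% and 18.4% had such a separation upwards and downwards. For Cdx1 the nearest arrays were at 4.02 in epiblast E6.5 and 4.04 in epiblast E5.75. By position within the array Cdx1 did overlap, above 19.0% and 36.3% of genes in epiblast E6.5, against 31.9% and 45.0% in epiblast E5.75. The second probe set that names Lhx1 overlapped between the stages too. The median difference was 0.57 over the members and -0.01 over all genes. The call of Mixl1 was lost in 3 of 22 alternatives: with the 4 arrays compared alone (limma adjusted p = 0.144), with array weights (0.145) and without epiblast E6.5 replicate 2. Without epiblast E6.5 replicate 2 the difference was 3.03 with a limma adjusted p of 0.154, and over the fits tried the adjusted p ran from 0.00447 to 0.154. Without epiblast E5.75 replicate 2, 155 of all genes passed. Eomes passed without epiblast E5.75 replicate 2 (limma adjusted p = 0.0407) and after scaling each array to 1 interquartile range (0.0333), but not as reported.

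In bulk tissue, a higher signal from more cells of a type cannot be told apart from more RNA per cell. Eomes is also a gene of extraembryonic ectoderm and of visceral endoderm, and Lhx1 of visceral endoderm, which both adjoin the epiblast. The summed linear signal of 13 visceral endoderm markers was 365 to 381 in epiblast E6.5 and 353 to 361 in epiblast E5.75. That of 11 markers of extraembryonic ectoderm and trophoblast was 317 to 358 in epiblast E6.5 and 339 to 344 in epiblast E5.75. Of these 11 markers 5 had a higher mean in epiblast E6.5, none passed in limma (2 had an unadjusted p under 0.05), and the median difference was -0.15. A log2 array signal has no true 0, so no marker could be called absent, and the part of these tissues in the signals was not tested.

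Between the rsEpiSC stages, rsEpiSC E6.5 against rsEpiSC E5.75, none of the 8 genes passed in limma, where 0.0857% of all genes did, and 2 had an unadjusted p under 0.05. Those were Rspo3, at 1.38 ± 0.29 (limma adjusted p = 0.179), and Eomes, at 0.87 ± 0.26 (limma adjusted p = 0.555). Mixl1 was at -0.12 ± 0.37, with a 95% interval of -0.92 to 0.67 that leaves out the size of the difference in tissue. Rspo3 passed in the fit on these 4 arrays alone (limma adjusted p = 0.0345) and with array weights (0.00572). The remaining members lay between -0.54 ± 0.25 (Tbx6) and 0.37 ± 0.27 (Mesp1).

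Whether the stages differed by unequal amounts in lines and in tissue was tested as an interaction, the rsEpiSC difference minus the tissue difference. Mixl1 gave -3.62 ± 0.52 (limma adjusted p = 0.0636), the eighth largest value of all genes, and did not pass. It did pass with arrays scaled to 1 interquartile range (-4.16, limma adjusted p = 0.0331) and with genes of low signal left out (0.0491). Rspo3 gave 0.01 ± 0.41, with a 95% interval of -0.88 to 0.90, and Eomes -0.81 ± 0.37 (limma adjusted p = 0.577). None of the 8 passed, where 0.00902% of all genes did (Mid1 and Xist, named after their values were seen), and 2 of the 8 had an unadjusted p under 0.05.

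**Figure D2:**
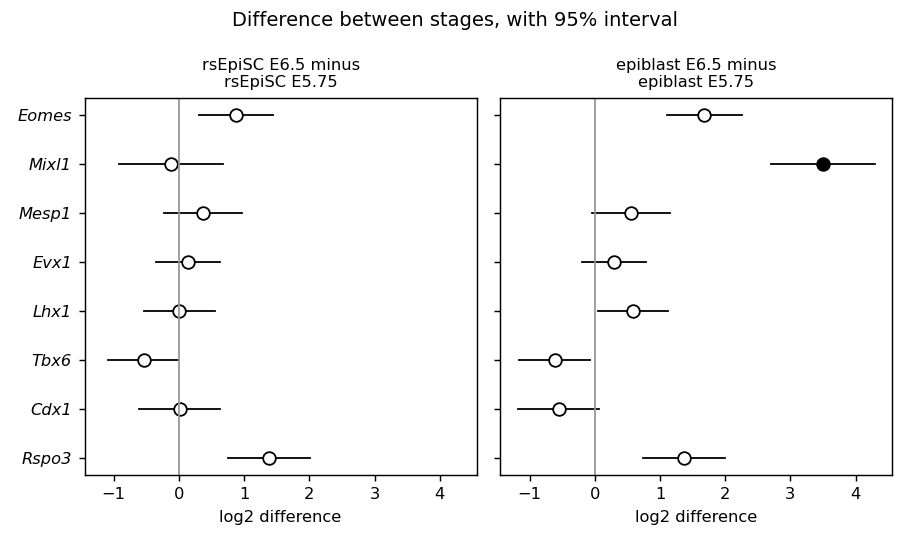
Log2 difference (horizontal axis) between the later and the earlier stage for the 8 genes, in rsEpiSC lines (left) and epiblast tissue (right), with the 95% interval of the fit. Filled points have an adjusted p under 0.05. Mixl1 is at -0.12 in the lines and at 3.49 in tissue, and Rspo3 is near 1.4 in both.

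Cultured lines were compared with tissue to ask which of these genes are at the level of the embryo. Against epiblast E6.5, Eomes was at -3.77 ± 0.26 in rsEpiSC E6.5 (13.7-fold lower, limma adjusted p = 2.26e-05), at -3.57 ± 0.26 in EpiSC (11.9-fold, 1.29e-05) and at -3.67 ± 0.26 in ESC (12.8-fold, 4.86e-06). Mixl1 was at -3.44 ± 0.37 in rsEpiSC E6.5 (limma adjusted p = 0.000266), at -3.24 ± 0.37 in EpiSC (0.000166) and at -3.09 ± 0.37 in ESC (0.000191). Both genes passed against epiblast E6.5 in each of these comparisons under all 22 alternatives run. All lines tested against the later tissue thus had much less of both signals.

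In rsEpiSC E6.5 against epiblast E6.5, 3 of 8 members fell, where 5.78% of all genes did. The third was Mesp1 (-0.93 ± 0.27, limma adjusted p = 0.0464). Lhx1 (-0.80 ± 0.25, limma adjusted p = 0.0538) and Rspo3 (-0.56 ± 0.29, limma adjusted p = 0.226) did not pass. In some alternatives Lhx1 did, such as array weights (limma adjusted p = 0.04), centring (0.0459) and scaling to 1 interquartile range (0.0407). The median difference was -0.68 over the members and -0.10 over all genes.

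In EpiSC against epiblast E6.5, 4 of 8 members fell, where 9.46% of all genes did. Beside Eomes and Mixl1 these were Lhx1 (-1.23 ± 0.25, limma adjusted p = 0.00491), which kept its call under all 22 alternatives, and Mesp1 (-0.87 ± 0.27, limma adjusted p = 0.0426). Rspo3 did not pass (-0.86 ± 0.29, limma adjusted p = 0.0529). The median difference was -0.87 over the members and -0.14 over all genes.

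In ESC against epiblast E6.5, 5 of 8 members fell, where 9.77% of all genes did, and 1 rose, where 9.76% did. Those that fell further were Rspo3 (-2.12 ± 0.29, limma adjusted p = 0.00047), Mesp1 (-1.01 ± 0.27, limma adjusted p = 0.0235) and Lhx1 (-0.87 ± 0.25, limma adjusted p = 0.0285). The one that rose was Cdx1 (0.90 ± 0.28, limma adjusted p = 0.0443), which did not pass without ESC replicate 2 (0.254) or without epiblast E6.5 replicate 1 (0.56, limma adjusted p = 0.251) and passed in 10 of 22 alternatives. With either of these arrays left out 3 of the 8 members passed. Lhx1 passed in 16 of 22 alternatives. The calls of Mesp1 were close to the threshold in all 3 comparisons, and passed in 9 of 22 alternatives for rsEpiSC E6.5, 10 of 22 for EpiSC and 16 of 22 for ESC.

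Against epiblast E5.75, Eomes was the single member that passed in either line of that stage, where 21.5% of all genes passed in rsEpiSC E5.75 and 24% in EpiSC. It was at -2.96 ± 0.26 in rsEpiSC E5.75 (limma adjusted p = 4.99e-05), where 10% of all genes fell, and at -1.89 ± 0.26 in EpiSC (3.71-fold lower, limma adjusted p = 0.000536), where 11.4% did. Both calls held under all 22 alternatives. Mixl1, by contrast with Eomes, was at 0.18 ± 0.37 in rsEpiSC E5.75 and 0.25 ± 0.37 in EpiSC, with 95% intervals of -0.62 to 0.97 and -0.54 to 1.05. Mesp1 was at -0.74 ± 0.27 in rsEpiSC E5.75 (limma adjusted p = 0.0719), and Lhx1 at -0.64 ± 0.25 (limma adjusted p = 0.0779) and Cdx1 at -0.75 ± 0.28 (limma adjusted p = 0.073) in EpiSC. Rspo3 was at -0.57 ± 0.29 in rsEpiSC E5.75 (limma adjusted p = 0.173) and at 0.50 ± 0.29 in EpiSC (0.215), and did not pass in either. Without epiblast E6.5 replicate 1 or replicate 2, which take part through the shared estimate of the spread, Cdx1 passed as a second member in EpiSC.

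**Figure D3:**
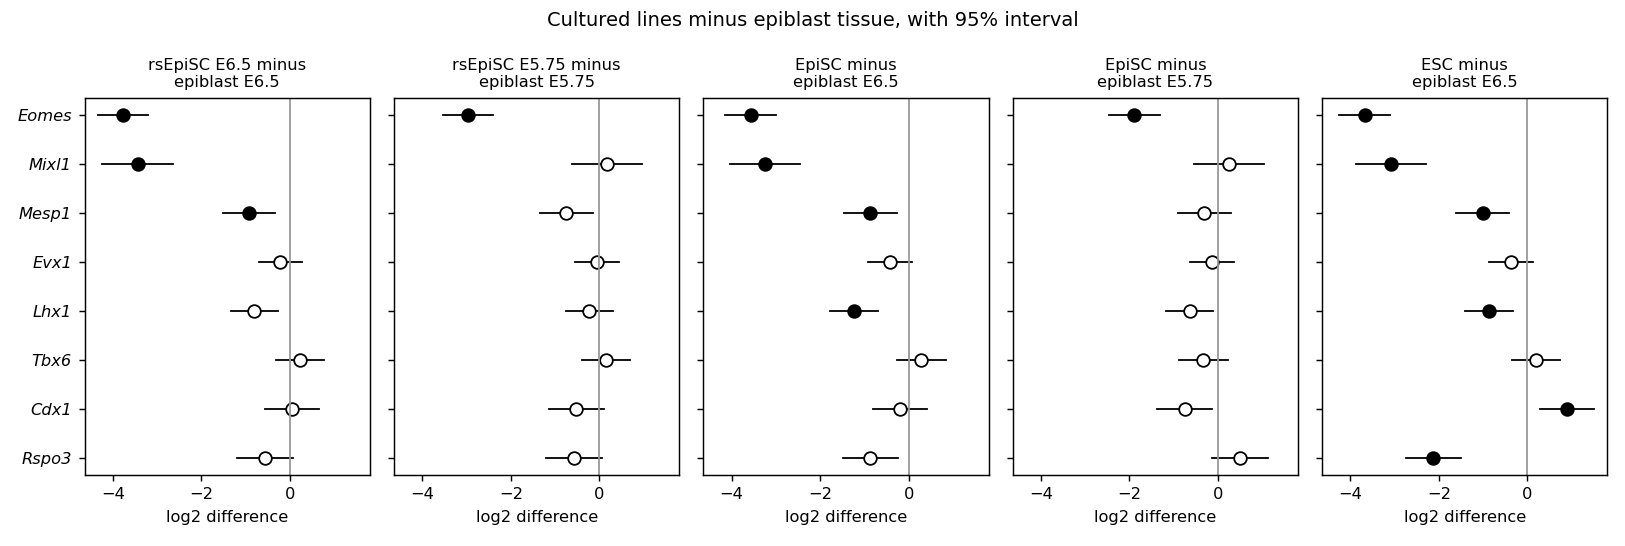
Log2 difference (horizontal axis) of the cultured lines minus epiblast tissue for the 8 genes in 5 comparisons, with the 95% interval of the fit. Filled points have an adjusted p under 0.05. Eomes is lower in all 5 comparisons, and Mixl1 in the 3 against epiblast E6.5.

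Stretches of 250 bases before the annotated start are shown for the genes that fell against epiblast E6.5 in at least 1 of the 3 lines and had an entry in the RefSeq promoter table (build GRCm38.p6), to give their sequence context. Eomes and Mesp1 fell in all 3, and Lhx1 in EpiSC and ESC. In rsEpiSC E6.5 Lhx1 was at -0.80 ± 0.25 without passing (limma adjusted p = 0.0538). Of the 8 members 5 had an entry, Eomes, Mesp1, Lhx1, Evx1 and Tbx6, on chromosomes 9, 7, 11, 6 and 7. Capitals mark a match to a searched motif. Sequences run 5′ to 3′ on the strand of the gene.
Eomes, chr9:118477939-118478188, plus strand: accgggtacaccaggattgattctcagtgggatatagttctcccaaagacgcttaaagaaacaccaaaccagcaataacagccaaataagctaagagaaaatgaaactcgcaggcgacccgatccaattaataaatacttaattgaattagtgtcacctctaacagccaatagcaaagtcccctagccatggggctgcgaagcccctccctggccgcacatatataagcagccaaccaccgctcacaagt
Mesp1, chr7:79793591-79793840, minus strand: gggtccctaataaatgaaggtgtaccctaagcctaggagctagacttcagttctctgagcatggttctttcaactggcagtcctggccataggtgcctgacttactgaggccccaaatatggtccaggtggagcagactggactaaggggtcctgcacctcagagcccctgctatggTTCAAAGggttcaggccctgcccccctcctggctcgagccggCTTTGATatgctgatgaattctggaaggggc
Lhx1, chr11:84525535-84525784, minus strand: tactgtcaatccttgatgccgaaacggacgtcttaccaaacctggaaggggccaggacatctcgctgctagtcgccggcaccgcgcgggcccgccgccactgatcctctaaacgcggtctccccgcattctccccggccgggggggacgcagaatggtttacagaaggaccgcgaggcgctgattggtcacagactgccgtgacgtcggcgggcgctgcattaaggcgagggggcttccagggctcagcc

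The motifs searched, on both strands, were CTTTGAT and CTTTGAA, which the TCF/LEF factors of the Wnt pathway bind, the T-box half-site TCACACC, the octamer ATGCAAAT of Oct factors and the TATA box TATAAA. They were chosen after the sequences had been seen. The Mesp1 window held CTTTGAT, 31 to 25 bases before the start, and CTTTGAA on the opposite strand, 73 to 67 bases before it. Of 32817 windows of the same length, 3.21% held CTTTGAT and 4.46% held CTTTGAA. None of the searched motifs was found in the Eomes and Lhx1 windows. The search took exact letters only. The Eomes window holds the stretch tatataa close to the start, which resembles a TATA box and which TATAAA does not match. Of the windows not shown, Evx1 held the octamer (1.6% of all windows did) and Tbx6 the TATA box (12.4%), and none of the 5 held the T-box half-site (3.33%). A match is a description of the sequence and not a binding site.

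Over the 8 cultured arrays the range of log2 signal was 1.77 for Rspo3, 1.46 for Cdx1 and 1.18 for Eomes, and under 1 for the other 5 members. Rspo3 rose in EpiSC against ESC by 1.26 ± 0.29 (limma adjusted p = 0.0209), and Cdx1 fell by 1.09 ± 0.28 (limma adjusted p = 0.0402). They were 1 of 8 members that rose, where 3.6% of all genes did, and 1 of 8 that fell, where 2.7% did. Neither passed without EpiSC replicate 1 or without EpiSC replicate 2. Without ESC replicate 1 Rspo3 was lost (limma adjusted p = 0.112), and without ESC replicate 2 Cdx1 was (0.267).

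In rsEpiSC E5.75 against EpiSC, 1 of 8 members fell, where 2.31% of all genes did. It was Eomes (-1.07 ± 0.26, limma adjusted p = 0.0425), whose call held in 10 of 22 alternatives. The call was lost without any 1 of the 4 arrays compared, and without any 1 array of rsEpiSC E6.5 or epiblast E6.5. It was also lost with the replicate number as a block (limma adjusted p = 0.0634) and after quantile normalization (0.0659). With scaled arrays (0.0701) and with every probe set (0.0848) it was lost too. Rspo3 was at -1.07 ± 0.29 (limma adjusted p = 0.0648) and passed in the fit on these 4 arrays (0.0428) and with array weights (0.0148). In rsEpiSC E6.5 against EpiSC none of the 8 passed in limma, where 3.89% of all genes did, and 0 had an unadjusted p under 0.05. Their differences ran from -0.20 ± 0.26 (Eomes) to 0.43 ± 0.25 (Lhx1). A test that is not passed does not show that the levels are alike, and the 95% interval for Eomes was -0.77 to 0.37.

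Signals of markers of fibroblasts, which make up the feeder layers, differed among these lines too. The summed linear signal of 13 fibroblast markers was 613 to 709 in rsEpiSC E6.5, 1106 to 1228 in rsEpiSC E5.75, 1445 to 2243 in EpiSC and 361 to 388 in ESC. It was 360 to 378 in epiblast E6.5 and 390 to 407 in epiblast E5.75. The markers did not all go the same way. Against epiblast E5.75, 8 of the 13 had a positive difference in rsEpiSC E5.75 (median 0.12) and 11 in EpiSC (median 0.48). In rsEpiSC E5.75, Acta2 was at 7.85 and 7.79, against 5.16 and 5.83 in epiblast E5.75. Dcn was at 3.04 and 3.28 there, against 5.04 and 5.56. Of the 13 markers 8 were above the median gene on both arrays of rsEpiSC E6.5, 7 in rsEpiSC E5.75, 10 in EpiSC and 7 in ESC, beside 6 in epiblast E6.5 and 8 in epiblast E5.75. By the side of these sums, the group means of Rspo3 were 4.92 in rsEpiSC E6.5, 3.54 in rsEpiSC E5.75, 4.62 in EpiSC and 3.36 in ESC. The part of feeder cells in the Rspo3 signal was not tested.

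Further genes of the streak and early mesoderm were followed as a list of 26, all measured. The list is not complete: the streak gene T (brachyury) was neither in it nor among the 8 members. Between the tissue stages, none passed in limma, and 5 had an unadjusted p under 0.05, with 13 higher and 13 lower in epiblast E6.5 and a median of -0.04 (all genes -0.01). The lowest p-values were those of Fst, which codes for the Activin and BMP antagonist follistatin (2.65 ± 0.57, limma adjusted p = 0.147), and Fgf8, a growth factor gene of the streak (0.96 ± 0.27, limma adjusted p = 0.195). Fst had signals of 7.95 and 8.51 in epiblast E6.5, against 4.60 and 6.56 in epiblast E5.75, where the 2 arrays differed widely. Fgf8 had signals of 5.46 and 5.79 in epiblast E6.5 and of 4.80 and 4.53 in epiblast E5.75. The rsEpiSC stages gave 0 calls by limma as well (3 genes had an unadjusted p below 0.05). In the interaction of stage with lines and tissue it was also 0 of 26, with 2 at an unadjusted p under 0.05.

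**Figure D4:**
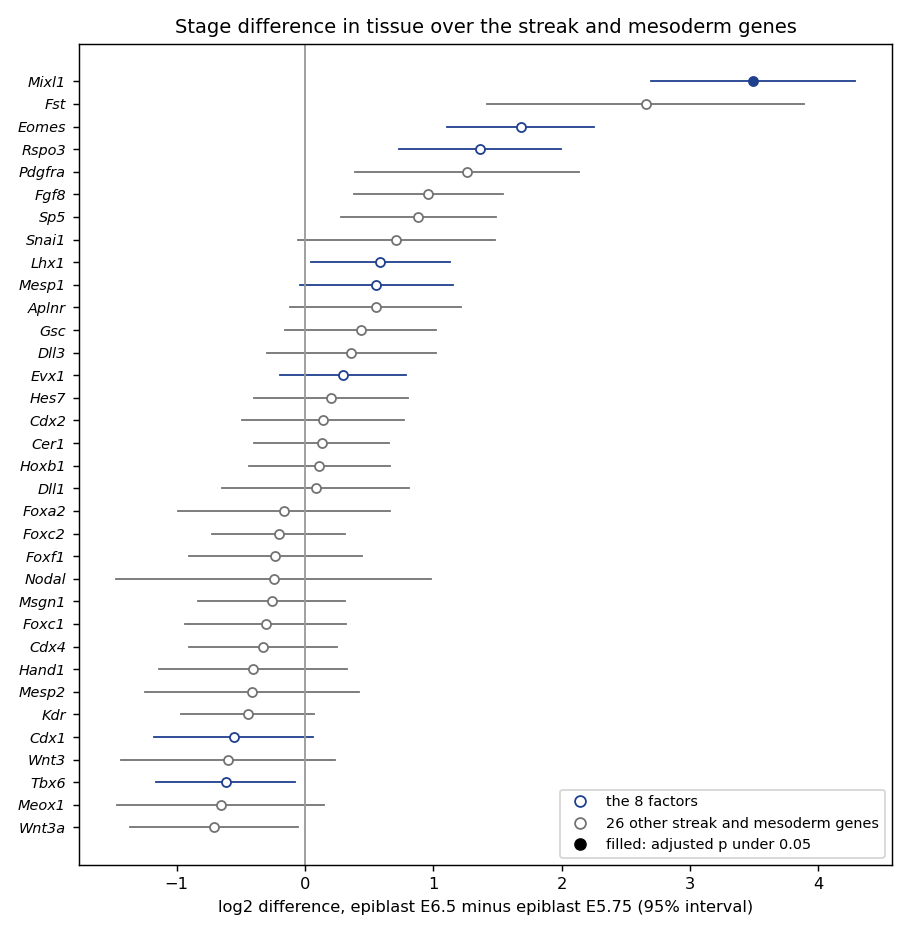
Log2 difference of epiblast E6.5 minus epiblast E5.75 (horizontal axis, with 95% interval) for the 8 factors and 26 other streak and mesoderm genes, sorted by value. Mixl1 is the one filled point, at 3.49, and 13 of the 26 other genes lie above 0.

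Fgf8 followed Mixl1 in the comparisons with the later tissue: it fell against epiblast E6.5 in rsEpiSC E6.5 (-1.35 ± 0.27, limma adjusted p = 0.00827), in EpiSC (-1.47 ± 0.27, 0.00277) and in ESC (-1.39 ± 0.27, 0.00394). In rsEpiSC E6.5 it was the 1 of 26 that fell, where 5.78% of all genes did, and none rose, where 6.72% did. In EpiSC 3 of 26 fell, Fgf8 with Fst (-2.81 ± 0.57) and Sp5, a direct Wnt target (-0.99 ± 0.28), and 2 rose, the Notch ligand gene Dll1 (1.35 ± 0.33) and the forkhead gene Foxc1 (1.89 ± 0.29), where 9.46% of all genes fell and 11.2% rose. In ESC 3 fell, Fgf8, Fst (-1.95 ± 0.57) and the receptor gene Pdgfra (-1.31 ± 0.40), and 2 rose, Snai1 (1.28 ± 0.35), a repressor of E-cadherin, and Mesp2 (1.21 ± 0.38), where 9.77% of all genes fell and 9.76% rose. These counts are near the shares over all genes. The medians of the list were -0.20, -0.13 and -0.06 for rsEpiSC E6.5, EpiSC and ESC, beside -0.10, -0.14 and -0.14 over all genes.

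Against epiblast E5.75 none of the 26 fell in limma. Of these genes 2 rose in EpiSC, Foxc1 (1.58 ± 0.29) and Dll1 (1.43 ± 0.33), and 2 in rsEpiSC E5.75, Pdgfra (1.44 ± 0.40) and Dll1 (1.39 ± 0.33). Of all genes 11.4% fell and 12.6% rose in EpiSC, and 10% fell and 11.5% rose in rsEpiSC E5.75, so the counts in the list do not exceed the shares over all genes. In EpiSC against ESC, Foxc1 rose (1.51 ± 0.29) and Snai1 fell (-1.36 ± 0.35), where 3.6% of all genes rose and 2.7% fell. In rsEpiSC E6.5 against EpiSC, Dll3 rose (1.58 ± 0.30) and Foxc1 fell (-1.84 ± 0.29), where 1.33% of all genes rose and 2.56% fell. In rsEpiSC E5.75 against EpiSC limma called 0 of the 26, where 1.56% of all genes rose and 2.31% fell, and 5 had an unadjusted p under 0.05.

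The genes whose pattern over the 12 arrays was most like that of each member were found by Pearson correlation of log2 signal, among 4590 genes with a range of at least 2. For Eomes they were Vmn1r58 (r = 0.978) and Gcc2 (0.962), for Mixl1 Bcl2a1c (0.886) and Vmn2r100 (0.885), and for Mesp1 Cep290 (0.871) and Plac8 (0.861). For Lhx1 they were Zfp329 (0.936) and Zfp971 (0.931), for Evx1 Sass6 (0.880) and Vmn2r100 (0.851), and for Rspo3 Pgbd1 (0.887) and Epha1 (0.860). For Tbx6 they were Cpne5 (0.821) and Olfr543 (0.763). The vomeronasal receptor gene Vmn1r58, at the head of the list for Eomes, had group means of 1.11 to 1.48 in lines, against 3.24 and 2.45 in epiblast E6.5 and epiblast E5.75. The lower quartile of all genes was 3.31 to 3.38 on the cultured arrays and 3.57 to 3.77 on the tissue arrays. The part of this difference between arrays in the likeness was not tested. For Cdx1 they were the germ cell gene Dazl (0.898) and the pluripotency gene Dppa5a (0.887). Dazl had a mean of 5.60 in ESC and of 2.30 to 4.05 in the other groups, and Dppa5a of 7.48 in ESC and of 3.95 to 5.28 in the others. These correlations rest on 6 groups of 2 arrays that share their normalization, and are descriptions.

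Among the members themselves, Eomes, Mixl1, Mesp1, Evx1, Lhx1 and Rspo3 correlated positively in every pair over the 12 arrays, from 0.434 (Lhx1 with Rspo3) to 0.886 (Eomes with Mesp1). Tbx6 correlated negatively with each of these 6 (-0.483 to -0.334). Cdx1 lay between -0.471 (with Rspo3) and 0.017 (with Eomes).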

How the data were processed

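Expression was measured on 12 arrays in 6 groups of 2. The deposited table holds log2 signals of 41345 probe sets, for which the submitters' processing notes name oligo and RMA, without versions or settings, and the array named in the labels' protocol is for human genes, whereas the identifiers match a mouse probe set table. Values ran from 0.332 to 13.6, 0 were missing and no arrays were identical. Probe sets with 1 symbol (23521) were kept. 1814 had several symbols and 16010 none. For 1082 genes with several probe sets the one with the highest mean was used, which left 22180 genes.

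Differences were fitted with limma 3.58.1 in R 4.3.3 on 6 group means with a variance trend (residual degrees of freedom 6, prior 5.99), in 11 comparisons, each adjusted over all genes. The fit was tested on simulated data. No filter on low signal was applied. The members and gene lists were chosen with earlier results of these data known. Further streak genes were named by rule: up to 3 per direction that passed with the largest difference and up to 2 that did not pass with the smallest p. Genes alike in pattern were the 2 of highest correlation, without predicted genes, small RNAs and genes of small range. The number of arrays limits the precision. Alternatives were a replicate block, leaving out each array, the compared arrays alone, no variance trend, array weights, quantile normalization, centring, scaling to 1 interquartile range, every probe set, a filter on low signal and the mean of probe sets.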

Additional observations from a re-analysis of the deposited data

How the results depend on the processing

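Of 19 differences of single members that passed, each refitted under 22 alternatives, 337 of 418 refits still passed and none changed sign. Of the 69 that did not pass, 24 of 1518 refits passed and 44 changed sign, at an adjusted p of 0.594 or more. Same-numbered arrays did not deviate together (correlations of -0.26 to 0.06 over 15 pairs of groups, 0 above 0.1), so equal numbers gave no sign of a pairing. The value of -0.26 was that of EpiSC with ESC, where arrays of unlike number deviated together, and the next lowest was -0.04. A batch shared by arrays of unlike number was not tested. With the replicate block, 0 members passed in rsEpiSC E5.75 against EpiSC, and Mesp1 lost its call in rsEpiSC E6.5 and EpiSC against epiblast E6.5. The block left 1 gene of all between the tissue stages and 1 in the interaction. The cause of the changes below was not tested.

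Between the tissue stages (5 genes of all, 1 member), the count of all genes was 0 with the compared arrays alone and 0 with array weights, 13 after quantile normalization, 3 after centring, 40 with scaled arrays, 10 with every probe set and 8 with the low signal filter. Members that passed were 0, 0 and 2 with the compared arrays, weights and scaling. Between the rsEpiSC stages (19 and 0) all genes gave 157 with the compared arrays, 257 with weights and 10 with scaling, and 1 member passed in each of the first pair. In the interaction (2 and 0) they gave 7 with the compared arrays, 4 without trend, 1 with weights, 1 after quantile normalization, 9 with scaling, 1 with every probe set, 7 with the filter and 0 with the mean of probe sets, and 1 member passed with scaling and 1 with the filter. EpiSC against epiblast E5.75 (5321) gave 2316 with the compared arrays and 3261 with weights, rsEpiSC E5.75 against epiblast E5.75 (4768) 2909 with the compared arrays, and ESC against epiblast E6.5 (4332) 2374. In that last comparison 3 of 6 members stayed called with the compared arrays, with weights and with every probe set. EpiSC against ESC (1396) gave 558 with the compared arrays, and of 2 members 0 passed there, 1 after quantile normalization and 0 with scaling and with every probe set. rsEpiSC E5.75 against EpiSC (858) gave 1567 with weights and 500 with scaling. There 2 members passed with the compared arrays and with weights, and 0 after quantile normalization, with scaling and with every probe set. rsEpiSC E6.5 against EpiSC (863) gave 1911 with weights, 463 with scaling and 517 with every probe set.

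With 1 array left out, all genes and members passing ranged over 0 to 155 and 0 to 2 (tissue stages), 3 to 25 and 0 to 0 (rsEpiSC stages), 1 to 6 and 0 to 0 (interaction), 2458 to 6100 and 1 to 2 (EpiSC against epiblast E5.75) and 2183 to 5482 and 3 to 5 (EpiSC against epiblast E6.5). They were 1627 to 5504 and 1 to 1 for rsEpiSC E5.75 against epiblast E5.75, 553 to 3754 and 2 to 4 for rsEpiSC E6.5 against epiblast E6.5, and 2900 to 5232 and 3 to 6 for ESC against epiblast E6.5. Among lines they were 829 to 1614 and 0 to 2 (EpiSC against ESC), 318 to 1005 and 0 to 1 (rsEpiSC E5.75 against EpiSC) and 242 to 1002 and 0 to 0 (rsEpiSC E6.5 against EpiSC).

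Signs turned, all in differences that did not pass, as follows. After quantile normalization the rsEpiSC stages gave -0.019 for Lhx1 and -0.000890 for Cdx1, the interaction -0.35 for Rspo3, Evx1 0.079 in EpiSC and 0.097 in rsEpiSC E5.75 against epiblast E5.75 and 0.018 in EpiSC against ESC, and Cdx1 0.074 in EpiSC against epiblast E6.5. With scaled arrays Cdx1 was -0.00396 between the rsEpiSC stages and 0.030 in EpiSC against epiblast E6.5, Rspo3 -0.35 in the interaction, and Evx1 0.022 in EpiSC and 0.056 in rsEpiSC E5.75 against epiblast E5.75. After centring Rspo3 was -0.041 in the interaction. With 1 array left out, the rsEpiSC stages gave -0.49 to 0.24 for Mixl1, -0.19 to 0.21 for Lhx1 and -0.040 to 0.059 for Cdx1, and the interaction -0.52 to 0.16 for Mesp1, -0.16 to 0.31 for Tbx6 and -0.34 to 0.37 for Rspo3. EpiSC gave -0.27 to 0.0097 for Evx1 and -0.11 to 0.61 for Mixl1 against epiblast E5.75, -0.54 to 0.15 for Cdx1 against epiblast E6.5 and -0.17 to 0.047 for Evx1 against ESC. rsEpiSC E5.75 gave -0.19 to 0.54 for Mixl1, -0.079 to 0.38 for Tbx6 and -0.20 to 0.082 for Evx1 against epiblast E5.75, and -0.44 to 0.29 for Mixl1 against EpiSC. rsEpiSC E6.5 gave -0.30 to 0.38 for Cdx1 against epiblast E6.5, and -0.16 to 0.041 for Tbx6, -0.28 to 0.17 for Mesp1 and -0.48 to 0.078 for Eomes against EpiSC.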
